A study of Homo sapiens with 5 samples.

Results

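The genes described here are transcripts that androgen is known to raise in prostate cells, other than the kallikreins and other secretory proteases. They were listed by name, and a gene was measured where a probe set of the array names it alone. Of 38 genes listed, 35 were measured, out of 12165 genes on the array, and SLC45A3, STEAP2 and SORD were not analysed here. A gene with several probe sets is represented by the one with the highest mean level over the celastrol arrays and DMSO replicates 1 and 2. The cells were LNCaP, a human prostate cancer line that responds to androgen, grown in RPMI medium with fetal bovine serum. They received 1.25 µM celastrol, a triterpenoid from the thunder god vine, or DMSO, its solvent, and RNA was taken after 6 h. There were 2 celastrol and 3 DMSO arrays, called biological replicates in the labels. The labels name no added androgen or antagonist in either group.

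Androgen binds the androgen receptor, a transcription factor held ready by HSP90 and its cochaperones. The bound receptor occupies DNA elements near its target genes and raises their transcription. In luminal prostate cells its targets serve secretion, lipid and sugar metabolism, ion transport and growth control. Some of them, such as FKBP5, TSC22D3 and ZBTB16, are also raised by glucocorticoid through the closely related glucocorticoid receptor.

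Levels are log2(intensity + 1), and a change is the mean of the 2 celastrol arrays minus the mean of DMSO replicates 1 and 2 on that scale. Adding 1 shrinks changes of faint probe sets. DMSO replicate 3, as labelled, is given apart. It correlated with the other arrays at r = 0.843 to 0.844 across probe sets, and those 4 with one another at 0.994 to 0.998. On it 11 of 11 luminal prostate markers were over 2-fold lower than on DMSO replicates 1 and 2, and their summed level was 51.9 against 103.9 to 106.5 on the other 4 arrays. Of 11 lymphoid markers, 8 were over 2-fold higher on it, with a summed level of 94.1 against 47.9 to 48.0, while the T cell markers CD3D, CD3E and CD2 stayed within 2-fold. On the 4 arrays each lymphoid marker lay between 4.06 and 4.77, near the floor of the scale. HMOX1, the inducible heme oxygenase and a check on the treatment, stood at 12.09 with celastrol and 6.15 with DMSO. Total intensity ran from 4939397 to 5348496 over the 5 arrays, and precision is limited by having so few arrays.

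With celastrol many of the androgen-induced genes lay lower than with DMSO, and none lay higher with its groups apart on the deposited scale. For 17 of 35 genes both celastrol arrays were below both DMSO arrays, where 19.4% of all genes were. Both celastrol arrays were above for 0 of 35, where 15% of all genes were on the deposited scale. After quantile normalization or median centring that count was 3. The share of all genes there is not given, so the contrast with all genes was drawn on the deposited scale only. The largest differences were those of C1orf116, ZBTB16, FKBP5, ADAMTS1, CAMKK2, PLPP1 and EAF2, which stood 0.32 to 0.93 lower on the log2 scale. These 7 are the genes at least 0.3 lower with groups apart, where 4.35% of all genes were; 3.07% of all genes, and 0 of these, were that much higher. By sign alone, 25 of the 35 were below 0, where 49.9% of all genes were, and 10 above 0, where 48.2% were. The median change of the 35 was -0.12, against 0.00 over all genes. The genes were listed with earlier results of these data known, so these shares describe the list and are no independent test of it.

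No single gene passed the test. The limma test, adjusted by the Benjamini-Hochberg method across the table of 22215 probe sets, called 0 of 35 lower, where it called 0.00822% of all genes, and 0 of 35 higher, where it called 0.00822% as well. The smallest adjusted p among the 35 was 0.104, that of PLPP1. At an unadjusted limma p under 0.05, 12 genes were lower and 0 higher, where 8.8% of all genes were lower and 6.3% higher. Without the dimmest 40% of probe sets the test called 0.47% of genes lower and 0.569% higher, and 0 of the 27 members left, with a smallest adjusted p of 0.0717. With 2 arrays a group an exact two-sided permutation test of 1 gene cannot go below p = 0.333.

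**Figure D1:**
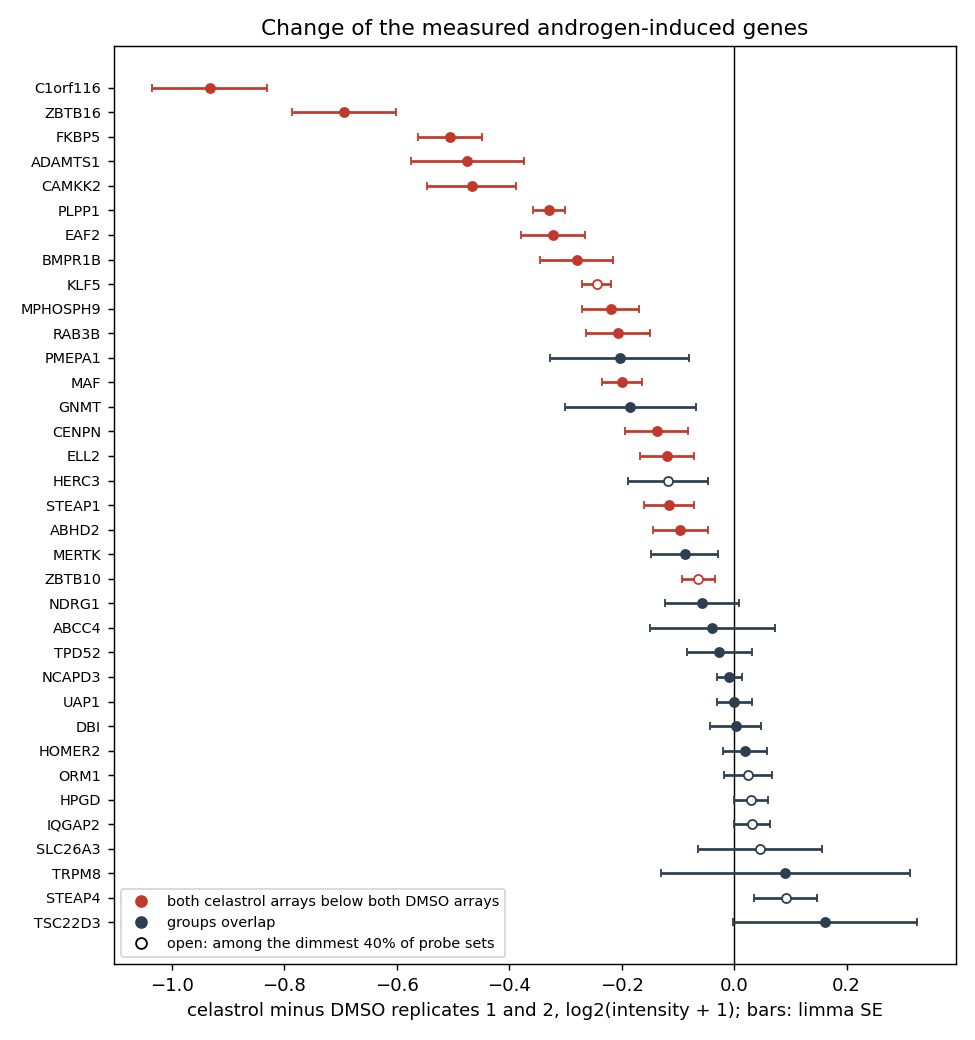
Change of each of the 35 measured genes on the log2(intensity + 1) scale (horizontal axis), as the mean of 2 celastrol arrays minus the mean of DMSO replicates 1 and 2, with limma standard errors as bars. Red points are the 17 genes whose celastrol arrays both lie below both DMSO arrays, open points the 8 genes among the dimmest 40% of probe sets, and the changes run from -0.93 for C1orf116 to 0.16 for TSC22D3.

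Promoters are shown for C1orf116, FKBP5 and CAMKK2, the 3 genes of largest change with an entry in the RefSeq promoter table of GRCh38.p14, which held 28 of the 35 genes. Each window runs from 250 bases before a gene's annotated start to 50 bases after it, on the gene's strand, so the start is base 251. They are shown because these genes lay lower together. The androgen receptor binds the letters AGAACA, often followed after any 3 bases by the reverse complement TGTTCT, and capitals mark either form. The C1orf116 window is chr1:207032707-207033006, minus strand, those of FKBP5 are chr6:35728534-35728833 and chr6:35688866-35689165, minus strand, and that of CAMKK2 is chr12:121296660-121296959, minus strand.
C1orf116: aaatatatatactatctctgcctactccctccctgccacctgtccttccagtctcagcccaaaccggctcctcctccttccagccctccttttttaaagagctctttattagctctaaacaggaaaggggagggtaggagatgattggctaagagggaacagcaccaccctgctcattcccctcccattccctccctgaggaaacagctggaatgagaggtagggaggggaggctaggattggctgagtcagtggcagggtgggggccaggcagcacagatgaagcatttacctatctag
FKBP5, upstream start: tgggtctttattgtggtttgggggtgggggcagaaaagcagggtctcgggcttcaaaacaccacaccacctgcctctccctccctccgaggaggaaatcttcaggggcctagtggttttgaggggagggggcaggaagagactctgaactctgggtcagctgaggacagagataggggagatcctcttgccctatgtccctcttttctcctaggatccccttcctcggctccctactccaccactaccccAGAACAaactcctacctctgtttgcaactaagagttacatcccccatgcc
FKBP5, downstream start: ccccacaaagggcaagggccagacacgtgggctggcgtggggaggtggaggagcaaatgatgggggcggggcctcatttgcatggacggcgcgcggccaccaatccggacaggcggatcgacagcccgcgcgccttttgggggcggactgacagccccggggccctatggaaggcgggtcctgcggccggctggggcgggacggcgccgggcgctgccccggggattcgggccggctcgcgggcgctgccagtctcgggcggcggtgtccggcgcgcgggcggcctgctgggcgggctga
CAMKK2: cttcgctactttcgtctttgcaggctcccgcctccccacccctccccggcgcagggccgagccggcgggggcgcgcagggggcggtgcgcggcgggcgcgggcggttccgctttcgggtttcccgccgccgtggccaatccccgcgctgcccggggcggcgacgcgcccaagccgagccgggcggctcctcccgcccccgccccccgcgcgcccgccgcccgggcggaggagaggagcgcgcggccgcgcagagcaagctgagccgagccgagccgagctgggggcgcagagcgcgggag
The upstream FKBP5 window holds AGAACA at bases 251 to 256, at the annotated start itself, and the other 3 windows hold neither form. GC content was 53.0% for C1orf116, 55.7% and 76.0% for the FKBP5 windows and 81.3% for CAMKK2. Counting either strand, 6 of 54 windows of the measured genes held the short motif, or 11.1%, against 14.8% of 35116 windows in the table. The genes with celastrol below DMSO that had an entry were 12, with 17 windows, and 2 of those windows held it. The full palindrome was in 0 of the 54 and in 1 of all windows. A match is only a match of letters, and most androgen receptor binding is known to lie outside such windows.

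C1orf116 encodes a cytoplasmic protein also named specifically androgen-regulated gene protein. It stood at 7.08 and 6.84 with celastrol and at 7.92 and 7.86 with DMSO, and at 4.64 on DMSO replicate 3. The celastrol arrays lay 0.78 below the nearer of the 2 DMSO arrays. The change was -0.93 (SE 0.102, limma adjusted p = 0.133), or 52.4% of the DMSO level, and 24 of 12165 genes had a change at least that low. A separate probe set for the gene gave 6.09 and 5.97 with celastrol and 6.98 and 7.05 with DMSO, a change of -0.98 (SE 0.0616, limma adjusted p = 0.0873). That probe set passed without the dimmest 40% of probe sets (limma adjusted p = 0.0491), after quantile normalization (adjusted p = 0.0310) and after median centring (adjusted p = 0.0373). In those settings 121, 197 and 139 probe sets of the whole table passed, against 2 in the main fit. With an offset of 16, other variance models or a replicate block it did not pass. Its adjusted p ran from 0.0310 to 0.976 over the alternatives that leave out no single array, highest on all 5 arrays. It read the same RNA samples, so it adds a probe and not a replicate.

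Among regulators of transcription, 6 of 7 lay lower with groups apart, 2 of them dim, where 19.4% of all genes lay so, with a median of -0.20 over the 7. ZBTB16, the zinc finger repressor PLZF, stood at 6.60 and 6.55 with celastrol and at 7.38 and 7.16 with DMSO. Its change was -0.69 (SE 0.0923, limma adjusted p = 0.155), and DMSO replicate 3 stood at 4.85. EAF2, a partner of the ELL elongation factors, stood at 5.82 and 5.69 with celastrol and at 6.06 and 6.10 with DMSO, a change of -0.32 (SE 0.0568, limma adjusted p = 0.197). The groups did not overlap in either gene, with gaps of 0.56 and 0.24. ELL2, itself an elongation factor, differed by -0.12 and MAF, a bZIP transcription factor, by -0.20. Their other probe sets, all among the dimmest 40%, had 0.002 for ELL2 and -0.03 and -0.02 for MAF. KLF5, a Krüppel-like factor of epithelia, differed by -0.24 and ZBTB10 by -0.06, but both probe sets were among the dimmest 40%. The other KLF5 probe set, also dim, had a change of 0.09.

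TSC22D3, the leucine zipper protein GILZ, was the exception in that group. Its celastrol arrays stood at 8.11 and 7.72 and its DMSO arrays at 7.73 and 7.78, so the groups overlapped. The change of 0.16 (SE 0.164, limma adjusted p = 0.636) came from celastrol replicate 1, and without that array it was -0.03. ZBTB16, FKBP5 and TSC22D3, named above as examples that glucocorticoid also raises, had changes of -0.69, -0.51 and 0.16. NR3C1, which encodes the glucocorticoid receptor, stood at 4.46 with celastrol and 4.46 with DMSO, among the dimmest probe sets, and at 8.04 on DMSO replicate 3.

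**Figure D2:**
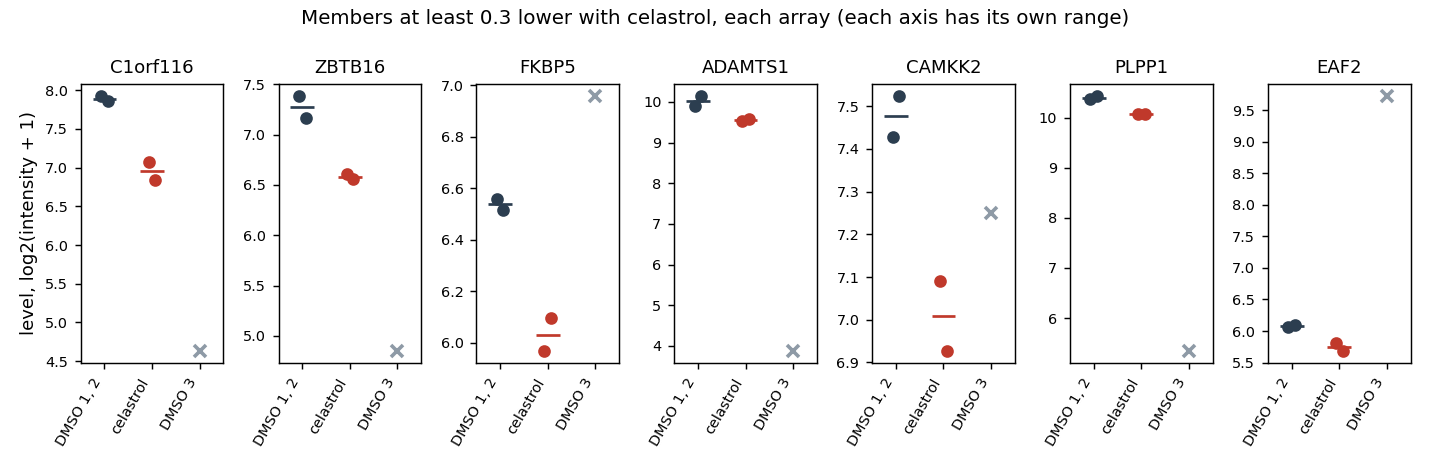
Level of the 7 genes at least 0.3 lower with celastrol, in log2(intensity + 1), on every array; dots are DMSO replicates 1 and 2 and celastrol replicates 1 and 2, lines their means (n = 2), crosses DMSO replicate 3, and each panel has its own axis range. In each panel both celastrol arrays lie below DMSO replicates 1 and 2, with gaps from 0.24 for EAF2 to 0.78 for C1orf116.

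Among signalling genes and cochaperones, FKBP5 encodes FKBP51, an immunophilin in steroid receptor complexes. It stood at 5.97 and 6.09 with celastrol and at 6.56 and 6.51 with DMSO, and at 6.96 on DMSO replicate 3, so both celastrol arrays lay below all 3 DMSO arrays. The change was -0.51 (SE 0.0574, limma adjusted p = 0.138), or 70.4% of the DMSO level. CAMKK2, a calcium-dependent kinase that activates AMPK, stood at 7.09 and 6.93 with celastrol, at 7.43 and 7.52 with DMSO and at 7.25 on DMSO replicate 3. The change was -0.47 (SE 0.0794, limma adjusted p = 0.192). Its other 3 probe sets gave -0.42, -0.01 and 0.20, the last of them among the dimmest 40% with celastrol above both DMSO arrays. Celastrol was below all 3 DMSO arrays for 5 members, FKBP5, CAMKK2, EAF2, KLF5 and ELL2, where 8.1% of all genes were, and above all 3 for 0, where 9.01% of all genes were. The profile of DMSO replicate 3 differed as described above, so that array adds no like replicate to these counts.

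Within this group of 12 genes, which includes C1orf116, 5 had both celastrol arrays below DMSO, where 19.4% of all genes did. BMPR1B, a type I receptor for bone morphogenetic proteins, differed by -0.28 (SE 0.0647) and RAB3B, a small GTPase of secretory vesicles, by -0.21 (SE 0.0570), with -0.12 on its other probe set. PMEPA1, which dampens TGF-beta signalling, was -0.20 with overlapping groups, since celastrol replicate 1 and DMSO replicate 2 both stood at 5.41. NDRG1, a growth arrest and stress gene, differed by -0.06 (95% interval -0.27 to 0.16). TPD52, a vesicle trafficking protein, differed by -0.03 on its brightest probe set, but by -0.18, -0.11 and -0.15 on the other 3. HERC3, a ubiquitin ligase, had -0.12 and MERTK, a receptor tyrosine kinase, -0.09, while the scaffold proteins HOMER2 and IQGAP2 had 0.02 and 0.03.

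Transporters, channels and metalloreductases showed small differences. Of 5 measured, 1 lay lower with groups apart, a share near the 19.4% of all genes, and the median change was 0.05. STEAP1, a six-transmembrane surface antigen of prostate cancer, stood at 11.49 and 11.49 with celastrol and at 11.56 and 11.65 with DMSO, and at 4.86 on DMSO replicate 3. The change was -0.12 (SE 0.0444, limma adjusted p = 0.472). Its paralog STEAP4, a metalloreductase, was dim, at 4.37 and 4.28 with celastrol and 4.18 and 4.28 with DMSO. TRPM8, the cold and menthol channel, stood at 4.94 and 4.41 with celastrol and at 4.58 and 4.58 with DMSO, so celastrol replicate 1 alone was high. Its change of 0.09 had a 95% interval from -0.62 to 0.80 and was -0.18 without that array. ABCC4, an exporter of cyclic nucleotides and drugs, differed by -0.04 (95% interval -0.40 to 0.32), and SLC26A3, a chloride and bicarbonate exchanger, was dim with 0.05.

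Of 6 metabolic genes, 2 lay lower with groups apart, where 19.4% of all genes did, and the median was -0.05. PLPP1, a phosphatase of lipid phosphates, stood at 10.08 and 10.07 with celastrol and at 10.38 and 10.43 with DMSO, and at 5.35 on DMSO replicate 3. The change was -0.33 (SE 0.0278, limma adjusted p = 0.104), or 79.6% of the DMSO level, and the gene's other probe set gave -0.33 (SE 0.114). ABHD2, a lipid hydrolase, differed by -0.10 with groups apart, and its other 3 probe sets had -0.12, -0.06 and -0.21. UAP1, which makes UDP-N-acetylglucosamine, had a change of 0.00 (95% interval -0.10 to 0.10) and DBI, the acyl-CoA binding protein, 0.00 (95% interval -0.14 to 0.15). GNMT, a methyltransferase that consumes S-adenosylmethionine, had -0.18 with overlapping groups, and HPGD, which degrades prostaglandins, was dim with 0.03.

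Of the genes of cell division, CENPN, a centromere protein, differed by -0.14 and MPHOSPH9, a centrosome protein, by -0.22, both with groups apart. A second CENPN probe set, also above the dimmest 40%, had 0.02 with overlapping groups. The other probe sets of MPHOSPH9 had 0.10 and -0.07, so its lower level rests on 1 of 3. NCAPD3, a condensin II subunit, differed by -0.01 (95% interval -0.08 to 0.06). Among secreted proteins, ADAMTS1, a metalloprotease of the extracellular matrix, stood at 9.52 and 9.57 with celastrol and at 9.90 and 10.13 with DMSO. Its change was -0.47 (SE 0.101, limma adjusted p = 0.247), and it stood at 3.89 on DMSO replicate 3. ORM1, which encodes an acute phase glycoprotein, was dim with 0.03.

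The counts differed between bright and dim genes. Of the 35 genes, 27 were above the dimmest 40% of probe sets (a mean of 4.54), and 15 of them, or 55.6%, had both celastrol arrays below DMSO, where 26.5% of such genes had, and 0 above, where 16.3% had. Their median change was -0.14, against -0.02 for all genes that bright. The 8 dim members had a median of 0.03 against 0.02. Of these 8, 2 lay lower with groups apart, where 5.33% of dim genes did, and 0 higher, where 12.6% did. Replicate arrays differed by a median of 0.06 between the celastrol pair and 0.08 between the DMSO pair. Values were tied within a group for 10 of the 35 genes, 5 of them among the 17, and a tie gives no spread for that group.

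**Figure D3:**
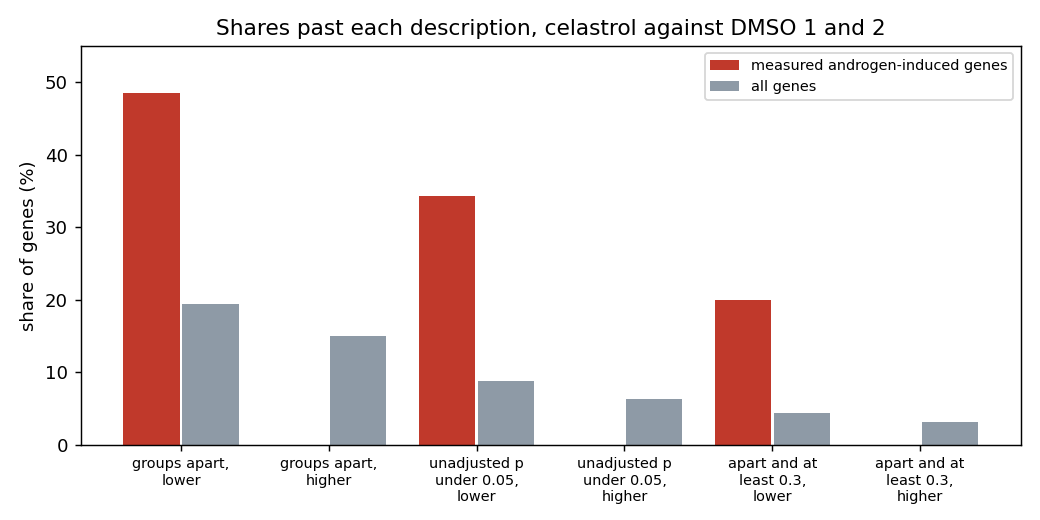
Share of the 35 androgen-induced genes (red) and of all 12165 genes (grey), in percent, whose celastrol arrays lie below or above DMSO replicates 1 and 2, whose unadjusted limma p is under 0.05, or whose groups are apart with a change of at least 0.3. The red bars stand at 48.6%, 34.3% and 20% on the lower side and at 0 on the higher side, and the grey bars at 19.4%, 8.8% and 4.35% lower. The 35 genes were listed with earlier results of these data known.

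Other androgen-induced genes, listed beside these, also held genes that lay lower. Of 16 measured, 8 had both celastrol arrays below DMSO and 1, VEGFA, above, where 19.4% and 15% of all genes did, with a median of -0.10. TMPRSS2, a surface serine protease, differed by -1.08 (SE 0.0451, limma adjusted p = 0.0654; adjusted p = 0.0387 without the dimmest 40% of probe sets, and 0.0163 to 0.992 over the alternatives, highest on all 5 arrays). KLK3, prostate-specific antigen, differed by -0.65 and KLK2 by -0.60, while VEGFA, an angiogenic factor, had 0.64. Of 12 coregulators of the receptor, 3 lay lower and 4 higher with groups apart, where 19.4% and 15% of all genes did, and the median was 0.07. The histone demethylase KDM3A had 0.36, CREBBP 0.27 and NCOA2 0.22, while NCOA1 had -0.26. The limma test over all probe sets called 0 of the 12, where it called 0.00822% of all genes each way. FOXA1, the pioneer factor, had -0.15.

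Of the luminal markers, 0 of 11 passed limma's test in either direction after adjustment over all probe sets, where 0.00822% of all genes did each way. At an unadjusted limma p under 0.05, 4 were lower and 2 higher, where 8.8% and 6.3% of all genes were. Without the dimmest 40% of probe sets, where 0.47% of genes passed as lower, 1 of these markers, TMPRSS2, did. Their summed level was 103.9 and 104.5 with celastrol against 106.0 and 106.5 on DMSO replicates 1 and 2, and 7 of 11 lay lower with groups apart, where 19.4% of all genes did: TMPRSS2, KLK3, FOLH1, HOXB13, FOXA1, SPDEF and ACP3. Of these 7, TMPRSS2, KLK3, FOLH1, SPDEF and ACP3 are 5 of the 8 androgen-induced genes already counted above as lower. The keratins KRT8 and KRT18, which define the luminal state, lay higher, by 0.11 and 0.27. In bulk RNA fewer cells of a type and less RNA per cell cannot be told apart, and the part of these markers in the result was not tested.

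On DMSO replicate 3 the androgen-induced genes split. There 15 of 35 were over 2-fold below the mean of DMSO replicates 1 and 2, where 12.0% of all genes were. Another 19 were within 2-fold, and 1, EAF2, was over 2-fold above, where 1009 of 12165 genes were. STEAP1 stood at 4.86 there against a mean of 11.61, PLPP1 at 5.35 against 10.41 and ABHD2 at 5.34 against 8.11. ADAMTS1 stood at 3.89 against 10.02, NDRG1 at 4.07 against 6.95 and HOMER2 at 4.26 against 6.69. The values of these last genes on that array are under 4.54, among the dim levels, so their differences are given as levels and not as folds. FKBP5 was higher by 0.42 and ELL2 by 0.82. With this array counted as DMSO, the median change of the 35 was 0.07 in place of -0.12, and that of C1orf116 was 0.15 and of PLPP1 1.36.

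**Figure D4:**
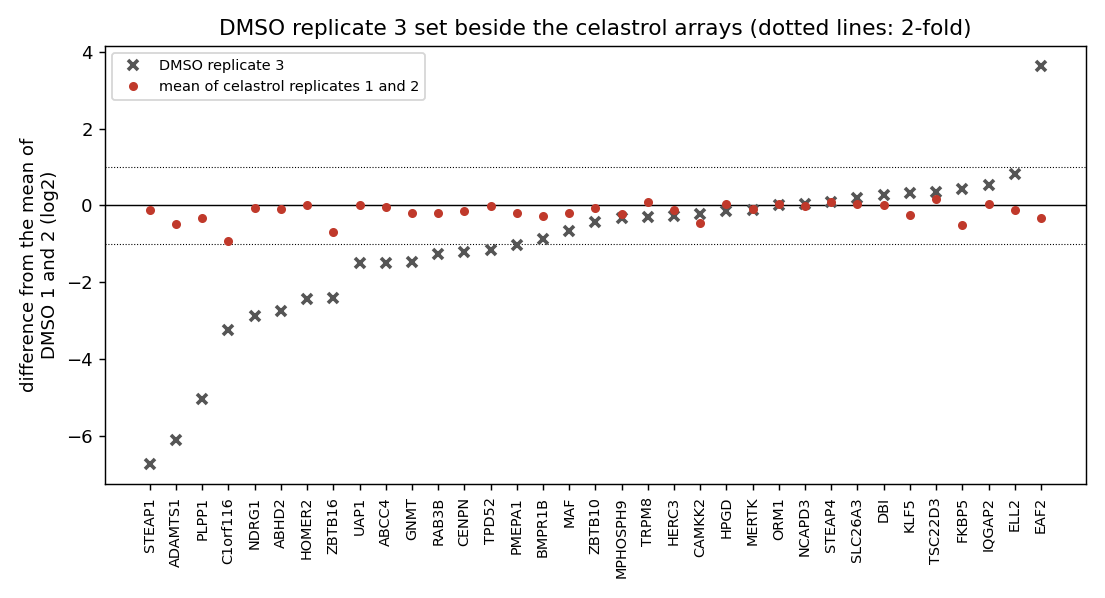
Difference of DMSO replicate 3 (crosses, 1 array) and of the mean of the celastrol arrays (dots, n = 2) from the mean of DMSO replicates 1 and 2, in log2, for each of the 35 genes, with dotted lines at 2-fold. The crosses run from -6.75 for STEAP1 to 3.64 for EAF2, while the dots stay between -0.93 and 0.16.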

How the data were processed

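Per the labels' protocols, Trizol-extracted total RNA was made into biotinylated cRNA for Affymetrix arrays. The authors deposited an intensity for each probe set on each array, on a linear scale. Per the submitters' processing notes these come from RMA; its version is not given in the sources used here. Groups follow the titles, since the description of DMSO samples speaks of celastrol. The platform annotation names 1 gene for 19724 of 22215 probe sets and several for 568, and 1923 are unnamed here. Looking up 19707 by Entrez ID changed 0 symbols. Values were used as log2(value + 1), with no further normalization.

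Celastrol replicates 1 and 2 were compared with DMSO replicates 1 and 2 by limma 3.58.1 (R 4.3.3), lmFit and eBayes, two-sided, adjusted by Benjamini-Hochberg over all probe sets, at 0.05, with 2 residual degrees of freedom. The fit was tested on simulated data. The outcome is not given here, so that check is no measure of whether changes of the members' size can be called. The members and lists were chosen with earlier results of these data known. Every member is named; array values are given for those with groups apart and a change of at least 0.3, and for FKBP5, TRPM8, STEAP1 and STEAP4. TSC22D3 was added to them after its values were seen. From other lists the rule takes up to 4 genes of smallest p and some fixed genes. Others named were picked to show the mix after their values were seen. Over probe sets the differences of replicates 1 and 2 correlated at r = -0.0197 between the groups, so the numbers did not pair the arrays. Alternatives were filters on dim probe sets, other normalizations, offset and variance models, all 5 arrays, a replicate block, each array left out and the median over a gene's probe sets.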

Additional observations from a re-analysis of the deposited data

Results flagged for a closer look

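EAF2 stood at 9.72 on DMSO replicate 3, an array outside the comparison, against 6.06 and 6.10 on the other DMSO arrays, which is 12.5-fold higher. It was the only one of the 35 genes over 2-fold above both of them there. On the same array 1009 of 12165 genes were over 2-fold higher than the mean of the other DMSO arrays. So were 8 of 11 lymphoid markers, and their part in the EAF2 level was not tested.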

How the results depend on the processing

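Of the 14 alternatives run, those that left out no single array kept the count of members called at 0 in either direction. The filters on dim probe sets left 27 or 26 members. Among all genes the filters called 84 and 87, quantile normalization 125 and median centring 92. With an offset of 16 the count was 29 genes, and with the robust and trend variance models 2 and 1. On all 5 arrays and with the replicate block 0 of 22215 probe sets were called, so 0 members there tells nothing about the members. The count with celastrol below DMSO stayed between 15 and 24, except that it was 5 on all 5 arrays, where 8.1% of all genes were. The count with celastrol above was 3 after quantile normalization, 3 after median centring and 1 with the median over a gene's probe sets, and 0 to 6 with 1 array left out, where a lone array stands for its group and is assumed to vary like the other group. The count below then ran from 19 to 24. Shares of all genes are not given here after other normalizations or with an array left out. With 1 array in a group, groups lie apart more easily for any gene. These counts are therefore not set against the 19.4% of the main comparison. The median change of the members stayed between -0.16 and -0.07, but was 0.0745 on all 5 arrays. There 19 members turned sign, and the cause was not tested beyond that array's own levels: ZBTB16 0.112, ZBTB10 0.0797, MAF 0.0215, PMEPA1 0.142, NDRG1 0.90, BMPR1B 0.00808, IQGAP2 -0.144, RAB3B 0.217, TPD52 0.357, C1orf116 0.152, SLC26A3 -0.0192, ABCC4 0.458, STEAP1 2.13, GNMT 0.304, DBI -0.0921, ABHD2 0.826, PLPP1 1.36, CENPN 0.267, ADAMTS1 1.57. NCAPD3 turned to 0.0345 after quantile normalization and 0.0119 after median centring, and with the median over a gene's probe sets MPHOSPH9 turned to 0.0467 and DBI to -0.0732. With 1 of the 4 arrays left out, 11 members turned sign: ABCC4 from -0.158 to 0.0804, DBI from -0.0427 to 0.0476, HOMER2 from -0.0223 to 0.0606, NCAPD3 from -0.0236 to 0.00572, NDRG1 from -0.126 to 0.0121, ORM1 from -0.0129 to 0.0635, SLC26A3 from -0.0863 to 0.179, TPD52 from -0.0852 to 0.0321, TRPM8 from -0.176 to 0.359, TSC22D3 from -0.0349 to 0.358, UAP1 from -0.0211 to 0.0218. The replicate block, with 1 residual degree of freedom, called 0 members and 0 of 22215 probe sets, where the main fit called 2 probe sets. Its smallest limma adjusted p among the members was 0.351. The median was the same, -0.116, and the numbers did not pair the arrays. Probe sets near the floor, among them 8 members, can hide changes, and 2 arrays a group leave wide intervals.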
